A study of Mus musculus with 36 samples.

Results

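The sites described are the CpHs of the *Wnt1DR* amplicon, that is, its cytosines followed by A, C or T rather than by G. They were taken from the reference sequences, and the values are the numbers of CpHs and of unconverted CpHs listed for each read. The amplicon lies in the *Rasgrf1* differentially methylated domain (DMD), which the *Wnt1DR* allele of the mouse carries at *Wnt1*, a locus that is not imprinted. The reference read for tail, sperm and embryonic day (e) 9.5 libraries held 60 CpHs and the reference for oocytes held 64. The references made up 66 distinct CpHs among 91 cytosines, and 58 CpHs were in both references. The tables give how many CpHs of a read stayed unconverted and not which ones, so no CpH could be described on its own.

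In mammals most DNA methylation is at CpGs, where DNMT1 copies it to the new strand at each cell division. Methylation of CpHs is laid down by the de novo enzymes DNMT3A and DNMT3B, mostly at CpA, has no such copying and is known mainly from oocytes, pluripotent cells and neurons. Bisulfite turns an unmethylated cytosine into uracil, which is read as T, whereas a methylated cytosine stays C, and a cytosine that bisulfite failed to convert also stays C. In this kind of data the CpHs therefore serve as the measure of conversion. An unconverted CpH can be a methylated cytosine, a failure of conversion or an error of the polymerase or the sequencer, and these cannot be told apart in a single read.

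The reference of tail, sperm and e9.5 reads is shown because it holds all CpHs counted in those reads, which are in capitals, with the cytosines of CpGs and all other bases in lower case. It matched the mouse genome (NCBIM37) once, at chr9:89774437-89774686 on the plus strand, overlapped no annotated gene and ended 29.9 kb before the start of *Rasgrf1*. The oocyte reference began 23 nt later, shared 227 nt with it and added a stretch at chr9:89774687-89774709, which follows it.
Tail, sperm and e9.5 reference: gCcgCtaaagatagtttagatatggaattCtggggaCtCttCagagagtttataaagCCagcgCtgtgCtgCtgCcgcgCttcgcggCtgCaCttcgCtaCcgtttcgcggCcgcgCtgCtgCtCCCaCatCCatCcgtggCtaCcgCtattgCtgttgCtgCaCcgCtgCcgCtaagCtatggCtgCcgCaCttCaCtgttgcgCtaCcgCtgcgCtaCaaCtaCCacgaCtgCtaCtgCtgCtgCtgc
Oocyte reference, last 23 nt: aCtaCcgttgcgCtacggCtgCc
Of the 60 CpHs, 34 were CpT, 15 CpC and 11 CpA. CTG was the commonest trinucleotide, with 18 of the 60, followed by CTA and CCG with 10 each. Equal numbers of 30 were in CHG and CHH context, where H is any base but G, and the reference also held 21 CpGs. The forward primer covered 2 of the 60 CpHs, and the primer of the nested PCR used for oocytes covered 5 of the 64. Since both primers carry T at these sites, these CpHs counted as converted in every read. CpG numbers run from 5′ to 3′ over the 20 CpGs that both references hold downstream of the primers, from CpG 1 at chromosome 9 position 89774498 to CpG 20 at position 89774665.

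Targeted bisulfite sequencing of this amplicon was done in 36 libraries of *Wnt1DR* mice. Tail DNA came from 12 +/DR animals, which inherited the allele from the father, and from 8 DR/+ animals, which inherited it from the mother. These animals were of generations 1 to 6 of pedigrees with paternal, maternal or alternating transmission. Whole sperm came from 2 DR/DR males, animals 35084 and 35090, and swim-up pellets and supernatants came from 2 +/DR males, animals 35669 and 35670, where the supernatant holds the motile sperm. Oocyte pool 1 was DR/DR and oocyte pool 2 was DR/+. For oocytes, salmon sperm DNA was added as a carrier before conversion and a nested PCR followed. At e9.5, extraembryonic tissue, head, spine and visceral organs were taken after paternal (+/DR) and after maternal (DR/+) transmission, in 1 library each. Sequencing was in 2 runs, with run 1 holding 6 tails and run 2 all other libraries.

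In all, 283511 reads were used, which were 22.4% of the 1264215 reads listed, with 1717 to 26861 per library. They held 17067523 CpHs, of which 79959 were unconverted. Within groups, 110 of 110 pairs of libraries differed in the strings of CpG calls of their reads and 87 in unconverted CpHs by a chi-square test at an unadjusted p under 0.05, and none was treated as a repeat of another. The test takes reads as independent, so it does not show that libraries came from separate samples. Reads from PCR without molecular identifiers are not independent molecules, and the Wilson intervals given below cover counting error only. Nothing in the labels states how many embryos a library at e9.5 holds, or whether its tissues came from the same embryos. The p-values therefore measure the spread between libraries, and tests with e9.5 libraries may count the same embryos more than once.

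Nearly all CpHs were converted in every library. Between 0.355 and 0.722 of 100 CpHs were unconverted, with a median of 0.470, so that conversion was 99.3% to 99.6%. No unconverted CpH was found in 213618 reads, or 75.3%. Exactly 1 was found in 60598 reads (21.4%), 2 in 8524 reads (3.01%) and 3 in 771 reads (0.272%), which was the highest number in any read used. A single unconverted CpH in a read of 60 is already 1.67 per 100. The rates of all libraries thus lay below the value of 1 site per read.

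The software dropped a read when under 95% of its CpHs were converted. In a read with 60 CpHs this limit admits at most 3 unconverted ones, so reads with dense CpH methylation would not be in the values above. Such reads were few among those that otherwise matched the reference at 98% identity. There were 91 of them, 0.0321% of the reads with this identity, and they came from 26 libraries. Of these, 37 had 3 unconverted CpHs, 50 had 4 and 4 had 5. Those with 3 had fewer than 60 CpHs counted. With identity lowered to 95%, 304829 reads were listed, still with no more than 5 unconverted CpHs in any of them. More than 5 were listed for 40471 reads, but these had an identity of at most 92.5% (median 51.2%), far from a full alignment to the amplicon. A densely CpH-methylated copy of the amplicon was thus not seen among well-aligned reads. Both primers carry T at their CpHs, so copies unconverted at these sites may have been amplified less. How many such copies were lost before sequencing was not tested.

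Taken as an upper bound, with every unconverted CpH counted as methylated, CpH methylation was at most 0.722% on average in any library among the reads used, or 0.747% over the CpHs outside the primer, whose cytosines come from the oligo. This bound is for the mean over CpHs and does not hold for a single CpH, since the unconverted positions are not known. In maternal extraembryonic tissue 33.8% of reads had exactly 1 unconverted CpH. Within each class the libraries were farther apart than the class means. The plot of rates by library shows this.

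**Figure D1:**
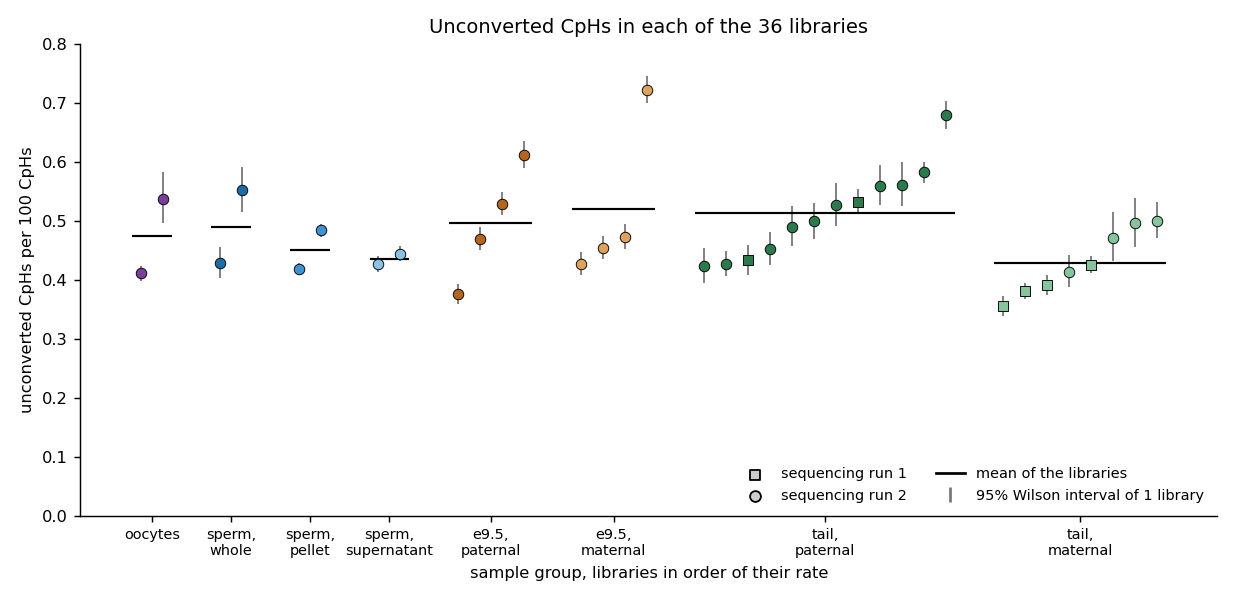
Unconverted CpHs per 100 CpHs (vertical axis) in each of the 36 libraries, by sample group, with squares for run 1, circles for run 2, the 95% Wilson interval of each library and the mean of each group as a line. The rates run from 0.355 in the maternal tail 31071 to 0.722 in maternal extraembryonic tissue, and all groups overlap.

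In oocytes, the germ cells where CpH methylation is best known, the 2 pools had 0.538 (95% interval 0.497 to 0.583, 1745 reads) and 0.411 (0.399 to 0.423, 16553 reads) unconverted CpHs per 100 CpHs. The intervals of the pools did not overlap, and the pools lay on either side of the median of all libraries. Their mean was 0.474 ± 0.090 (SD, n = 2). Against the 20 tails, with a mean of 0.480 ± 0.079 (SD, n = 20), the difference was -0.0057 (p = 0.970, two-sided exact permutation test). Against the 4 sperm animals, with 0.467 ± 0.060 (SD, n = 4), it was 0.0076 (p = 0.933, exact permutation test), in a design where the smallest p is 0.133. Against the 8 libraries at e9.5 it was -0.0335 (p = 0.844, exact permutation test). Primer CpHs, counted as converted in every read, were 5 of 64 in oocyte reads and 2 of 60 in the others, which lowers the oocyte rates more. Over CpHs outside the primer the pools had 0.584 and 0.446. Oocytes minus tails was then 0.0180 (p = 0.693, exact permutation test), with 0.0317 against sperm and -0.0108 against e9.5 tissues. Primer, PCR and reference also differed between oocytes and the other samples, and these cannot be told apart from the cell type.

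Sperm carried a partly methylated allele, and the rates of its libraries were close together with 1 exception. Whole sperm of animal 35084 had 0.552 and of animal 35090 had 0.428 unconverted CpHs per 100 CpHs. Animal 35669 had 0.418 in the pellet and 0.427 in the supernatant, and animal 35670 had 0.484 and 0.445. Supernatant minus pellet was thus 0.0086 in one animal and -0.0396 in the other, of opposite sign (mean -0.0155, exact sign-flip permutation p = 1.0, where 0.500 is the smallest p that 2 pairs allow). Sperm differed from tails by -0.0132 (p = 0.789, exact permutation test) and from e9.5 tissues by -0.0411 (p = 0.541, exact permutation test), less than the spread within each group.

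At e9.5 the tissues had a mean of 0.508 ± 0.111 (SD, n = 8), and of 0.477 ± 0.075 (SD, n = 7) without maternal extraembryonic tissue. After paternal transmission the rate was 0.376 in extraembryonic tissue, 0.469 in head, 0.529 in spine and 0.612 in visceral organs. After maternal transmission it was 0.722 in extraembryonic tissue, 0.473 in head, 0.454 in spine and 0.427 in visceral organs. By these rates, each of 1 library, the order of the tissues was reversed between the transmissions, with extraembryonic tissue lowest in one and highest in the other. The place of paternal visceral organs in this order changed when some sets of reads with identical CpG calls were left out, as given below. Paternal minus maternal was -0.347 in extraembryonic tissue, -0.0038 in head, 0.0742 in spine and 0.185 in visceral organs. With the tissues as pairs the mean difference was -0.0228 (exact sign-flip permutation p = 0.875, where 0.125 is the smallest p that 4 pairs allow). The e9.5 libraries differed from tails by 0.0279 (p = 0.456, exact permutation test). Without maternal extraembryonic tissue this difference was -0.0028.

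Among tails, paternal transmission had the higher mean, and the rates of the 2 transmissions overlapped. The 12 paternal tails ranged from 0.423 in animal 32415 to 0.679 in animal 31508 with a median of 0.513, and their mean was 0.514 ± 0.076 (SD, n = 12). The 8 maternal tails ranged from 0.355 in animal 31071 to 0.500 in animal 32178 with a median of 0.420, and their mean was 0.429 ± 0.054 (SD, n = 8). The difference was 0.0847 (p = 0.0114, two-sided exact permutation test), which did not pass after adjustment over the 10 comparisons between groups (Benjamini-Hochberg p = 0.0704). The sequencing run moved with transmission, since run 1 held 2 paternal and 4 maternal tails. Run 1 tails had 0.420 ± 0.062 (SD, n = 6) and run 2 tails 0.506 ± 0.073 (SD, n = 14), a difference of -0.0862 (p = 0.0141, adjusted p = 0.0704, exact permutation test). Within run 2 the paternal tails had 0.520 and the maternal tails 0.470, a difference of 0.050 (p = 0.246, exact permutation test with 10 and 4 animals). Within run 1 the means were 0.483 and 0.388, with only 2 paternal animals. Between the runs, the difference was -0.0376 within paternal tails (p = 0.606, exact permutation test) and -0.0820 within maternal tails (p = 0.0571, exact permutation test). All other groups were sequenced in run 2 alone, and the 3 comparisons with tails also gave differences within the spread there (-0.0391 for sperm, 0.0020 for e9.5 tissues and -0.0315 for oocytes).

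The share of reads with an unconverted CpH followed the rates. It ran from 19.4% in the maternal tail 31071 to 38.5% in maternal extraembryonic tissue, and the share with at least 2 ran from 1.78% in that tail to 7.24% in the paternal tail 31508. These high libraries differed in kind. The paternal tail 31508 had 32.8% of reads with at least 1, and maternal extraembryonic tissue had 38.5% but only 4.66% with at least 2. Paternal tail 31819 had 28.1% and 5.73%.

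**Figure D2:**
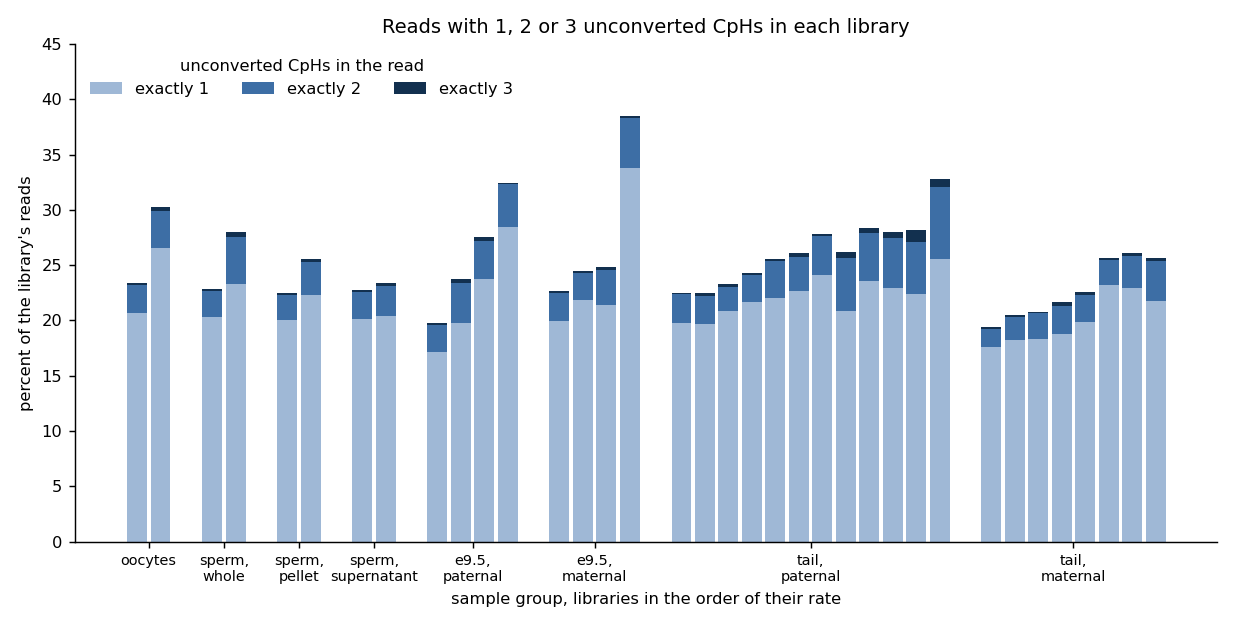
Percent of each library's reads (vertical axis) with exactly 1, 2 or 3 unconverted CpHs, stacked, by sample group, with libraries of a group in the order of their rate. Reads with 1 make up most of every bar, and the high bar of maternal extraembryonic tissue (38.5%) is made mainly of these, while the paternal tail 31508 has the largest part with 2 or more (7.24%).

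Within libraries, mismatches to the reference did not run with the rate in a single direction. Mismatches ranged from 0.450 to 2.14 per read between libraries. Tails of run 1 had fewer mismatches (mean 0.599 per read against 1.19 in run 2) and also the lower mean rate (0.420 against 0.506). A relation between mismatches and rate across libraries was not tested. Reads without a mismatch had a lower rate than the other reads of the same library in 20 libraries and a higher rate in 16, and their rate ranged from 0.346 to 0.727. Maternal extraembryonic tissue, with the highest rate of unconverted CpHs, had the lowest number of mismatches, 0.450 per read, and a rate of 0.727 in reads without any.

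Whether CpHs stayed unconverted more often in molecules with methylated CpGs was asked within libraries, by the number of the 20 CpGs called methylated in the read. Reads with 17 to 20 methylated CpGs were compared with reads with none wherever both classes had at least 50 reads. In 5 paternal tails the difference per 100 CpHs was -0.220, -0.0264, -0.0090, 0.0689 and 0.148, with a mean of -0.0077 ± 0.137 (SD, n = 5; exact sign-flip permutation p = 0.813, where the smallest p is 0.0625). In paternal e9.5 tissues it was -0.207 in extraembryonic tissue, 0.105 in head, 0.0900 in spine and 0.250 in visceral organs, with a mean of 0.0596 ± 0.192 (SD, n = 4; exact permutation p = 0.625, where the smallest p is 0.125). Signs were mixed in both sets. In paternal visceral organs the reads with 17 to 20 methylated CpGs included a large set with identical CpG calls. Nearly all reads of this set had an unconverted CpH, as described below for such families. With 15 such families left out, the mean over paternal e9.5 tissues was 0.0120, with no test. In sperm the mean over animals was -0.0293 ± 0.0654 (SD, n = 4; exact permutation p = 0.375, where the smallest p is again 0.125).

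The swim-up fractions stood apart from each other within that sperm mean. In the supernatants, highly methylated reads had 0.297 and 0.265 unconverted CpHs per 100 CpHs against 0.433 and 0.487 in reads with no methylated CpG, in animals 35669 and 35670 respectively. The pellets of the same animals had 0.430 and 0.514 against 0.423 and 0.475. The differences were therefore -0.136 and -0.222 in supernatants and 0.0073 and 0.0385 in pellets, in the same order in both males. With 2 animals this difference between fractions was not tested, and the pattern was picked out after the values were seen.

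Reads with sporadic methylation, at 1 to 3 of the 20 CpGs, were compared with reads with none in the same way. In the 8 maternal tails the mean difference was -0.0203 ± 0.0308 (SD, n = 8; exact sign-flip permutation p = 0.102), with lower rates in the sporadically methylated reads in 6 animals. Leaving out animal 31544 gave -0.0254 (exact permutation p = 0.0469 before adjustment), whereas leaving out any other animal gave unadjusted exact permutation p from 0.0781 to 0.203. In maternal e9.5 tissues it was -0.0430 ± 0.139 (SD, n = 4; exact permutation p = 0.750), with -0.233 in extraembryonic tissue and 0.0356, -0.0556 and 0.0807 in head, spine and visceral organs. In sperm it was -0.0192 ± 0.0387 (SD, n = 4; exact permutation p = 0.375). None of the 6 within-library comparisons passed after adjustment (adjusted p from 0.609 to 0.813), and no difference between the effects in tails, e9.5 tissues and sperm passed when it was itself tested (6 exact permutation tests, unadjusted p from 0.400 to 0.962).

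In both oocyte pools sporadically methylated reads had the higher rate. In pool 1, 762 reads with 1 to 3 methylated CpGs had 0.901 unconverted CpHs per 100 CpHs (0.821 to 0.989) and 982 reads with none had 0.256 (0.220 to 0.299). In pool 2 the values were 0.786 (0.735 to 0.842, 1632 reads) and 0.379 (0.365 to 0.393, 11434 reads). Reads of pool 2 with 4 to 16 methylated CpGs returned to 0.339. Sporadically methylated reads were also higher in 3 of the 4 paternal e9.5 tissues, at 0.643 against 0.372 in head, 0.627 against 0.455 in spine and 0.982 against 0.366 in visceral organs, and lower in extraembryonic tissue, at 0.348 against 0.484. In both oocyte pools and in paternal visceral organs these classes included a large set of reads with identical CpG calls, most with an unconverted CpH, described below as families. The class rates are therefore not a trait of all sporadically methylated reads, and rates of these sporadic classes without such families were not computed. The comparison was not tested in oocytes or in paternal e9.5 tissues.

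**Figure D3:**
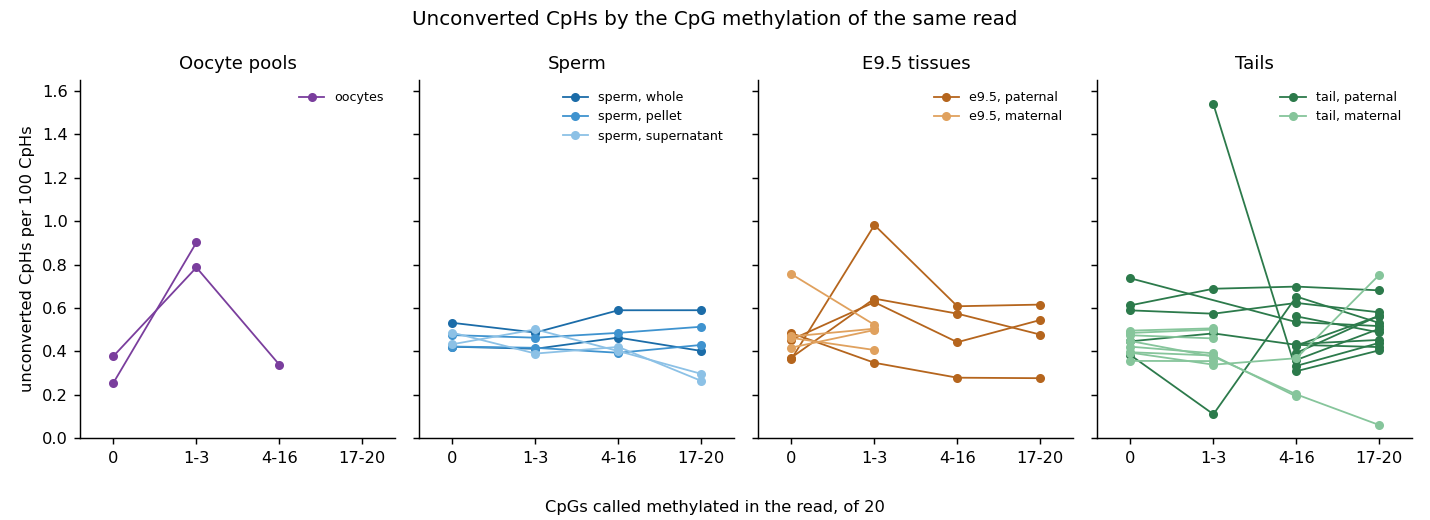
Unconverted CpHs per 100 CpHs (vertical axis) by the number of the 20 CpGs called methylated in the read (horizontal axis: 0, 1 to 3, 4 to 16 and 17 to 20), in oocytes, sperm, e9.5 tissues and tails, with each line a library and classes under 50 reads left out. A paternal tail, 32415, reaches 1.54 at 1 to 3 methylated CpGs on 50 reads, and both oocyte pools and paternal visceral organs peak at 1 to 3 methylated CpGs (0.901, 0.786 and 0.982). In the pools and visceral organs this class includes a family of reads with identical CpG calls, most with an unconverted CpH.

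Reads of a library with the same calls at all 20 CpGs were then treated as a family, for families of at least 50 reads. There were 528 such families in the 36 libraries, with 81.1% of the reads. The share of a family's reads with at least 1 unconverted CpH had a median of 20.7%, and 5% of families lay below 9.01% and 5% above 49.5%. Away from this range, 15 families in 8 libraries had an unconverted CpH in at least 75% of their reads. They held 2487 reads. The family nearest above this value had 80.7% (83 reads of paternal visceral organs) and the family nearest below it had 69.0% (84 reads of the 35669 supernatant). Families and thresholds were chosen after the values were seen, and these shares are a description.

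In 13 of the 15 families most reads had exactly 1 unconverted CpH, and in the other 2 families most had exactly 2. Oocyte pool 1 had a family of 307 reads methylated at CpG 2 alone, in which 98% of reads (95.8% to 99.1%) had an unconverted CpH and 85.7% had exactly 1. These were part of the 762 reads of this pool with 1 to 3 methylated CpGs. Another family of this pool, 279 reads methylated at CpG 4 alone, had 16.8% (12.9% to 21.7%), and its 969 reads with no methylated CpG had 14.2%. CpG 2 and CpG 4 are 7 nt apart, at positions 89774512 and 89774519. In pool 2, 511 reads methylated at CpG 6 alone had 82.4% (78.8% to 85.4%), whereas 3204 reads methylated at CpGs 2, 3, 5 and 9 had 19.6% (18.3% to 21%) and 11157 reads with no methylated CpG had 21.6%. The 511 reads were part of the 1632 reads of pool 2 with 1 to 3 methylated CpGs. The other families methylated at a single CpG had 8.20% in pool 1 (61 reads, CpG 5) and 20.0% to 29.3% in pool 2 (5 families of 59 to 117 reads).

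Paternal visceral organs held the 606 reads of the largest of the 15 families, unmethylated at CpGs 14, 19 and 20 and methylated at all others. Here 85.5% of reads had exactly 1 unconverted CpH, 14% had 2 and 0.330% had none. The family also had 0.972 mismatches per read, against 0.491 in the library. Its neighbours in the same library, 4684 reads methylated at all 20 CpGs and 903 reads methylated at none, had an unconverted CpH in 23.4% and 19.7% of reads. A further 227 reads of this library, methylated at CpG 8 alone, had 96.0%, and were part of its 564 reads with 1 to 3 methylated CpGs. In the paternal tail 32802 all reads of a family of 94 and a family of 84 had at least 1. The same tail held both families with mostly 2, in which 90.3% of 62 reads and 86% of 50 reads had exactly 2. The 35669 supernatant had 3 of the 15 families and the 35670 supernatant had 1. Whether the reads of a family were copies of a single converted molecule was not tested.

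**Figure D4:**
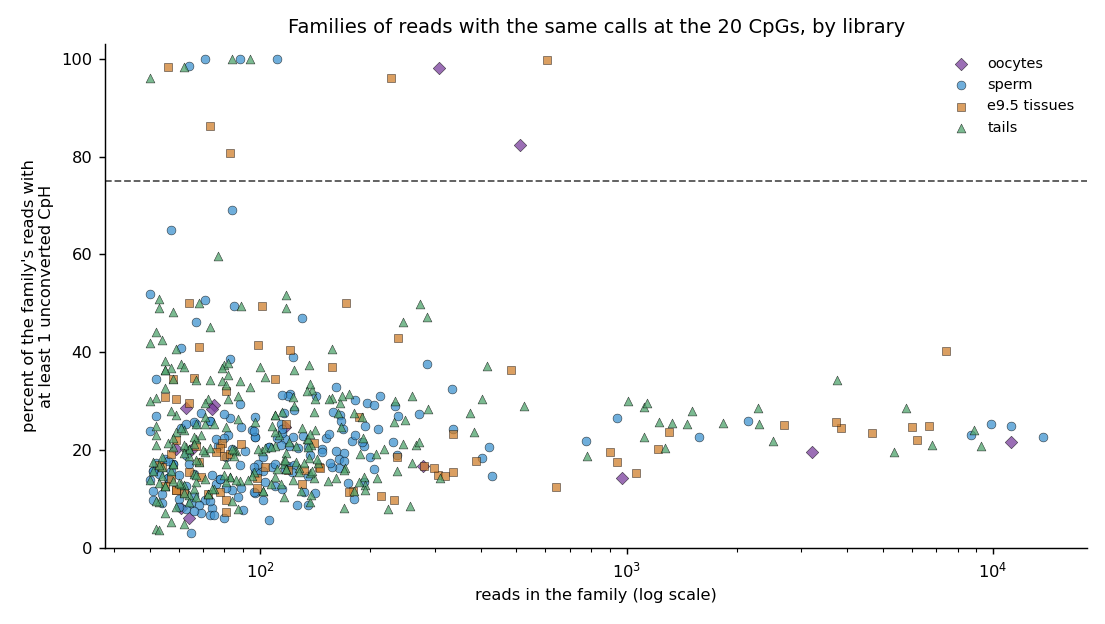
Percent of a family's reads with at least 1 unconverted CpH (vertical axis) against the number of reads in the family (horizontal axis, log scale), for 528 families, with a marker for each class of sample and a dashed line at 75%. Most families lie near the median of 20.7%, 15 lie above the line, and the wholly unmethylated family of maternal extraembryonic tissue (7458 reads, 40.2%) stands above other families of its size.

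Leaving out the 15 families changed 8 libraries. The rate of oocyte pool 1 went from 0.538 to 0.282, of pool 2 from 0.411 to 0.376, of paternal visceral organs from 0.612 to 0.439 and of the paternal tail 32802 from 0.532 to 0.454. In the remaining 4 libraries it moved by 0.0207 or less. Paternal visceral organs then lay below paternal head (0.460) and spine (0.520), so the order of the e9.5 tissues was no longer reversed between the transmissions. Oocytes then lay below tails by 0.147, below e9.5 tissues by 0.155 and below sperm by 0.134 per 100 CpHs, with no test, since the families were chosen on the same values. Tails of paternal transmission still had the higher mean, by 0.0782.

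Maternal extraembryonic tissue was not changed by this step, and its high rate came from its main family. In the 7458 reads with no methylated CpG, 35.3% had exactly 1 unconverted CpH and 4.76% had 2, so that 40.2% (39.1% to 41.3%) had at least 1. The families of 306 reads methylated at CpG 18, 237 reads methylated at CpGs 14 and 16 and 140 reads methylated at CpG 15 had 15%, 18.6% and 21.4%. In the other maternal e9.5 tissues the unmethylated family had 24.7% in head, 24.9% in spine and 22.1% in visceral organs. Across the 8 maternal tails it had 19.7% to 25.9%, and in paternal extraembryonic tissue 24.6%.

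If CpGs and CpHs fail to convert at like rates, a CpG call at or below the CpH rate cannot be told apart from failed conversion. Where the allele was unmethylated, CpGs and CpHs could be set side by side in the same reads. In the 4 maternal e9.5 tissues 1.11% to 1.16% of CpG calls were methylated, which was 1.55 times the CpH rate in extraembryonic tissue and 2.34 to 2.71 times in the others. The CpG level of maternal extraembryonic tissue (1.12%) was thus within the range of the other tissues while its CpH rate was not. In the 8 maternal tails the CpG level was 1.81% to 2.63%, or 4.02 to 6.90 times the CpH rate. In oocytes it was 2.34% in pool 1 and 4.87% in pool 2, or 4.36 and 11.8 times. Few CpGs made up that level. In pool 1, CpG 2 was called methylated in 19.0% of reads and CpG 4 in 17.5%, and in pool 2, CpGs 2, 3, 5 and 9 in 21.7% to 22.1%, whereas the mean over CpGs 11 to 20 was 0.338% and 0.426%. Of the 20 CpGs, 14 in pool 1 and 11 in pool 2 lay below the CpH rate of their pool. So did 11 in maternal extraembryonic tissue and 1 in the maternal tail 32178, where CpG 12 had 0.409% against 0.500 unconverted CpHs per 100. Against the rate over CpHs outside the primer, the numbers were 16 in pool 1, 11 in pool 2, 11 in maternal extraembryonic tissue and 1 in the maternal tail 32178, and CpG 20 of the maternal tail 31075 lay below it too (0.396% against 0.404). By either rate no CpG lay below it in any sperm, paternal e9.5 or paternal tail library.

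**Figure D5:**
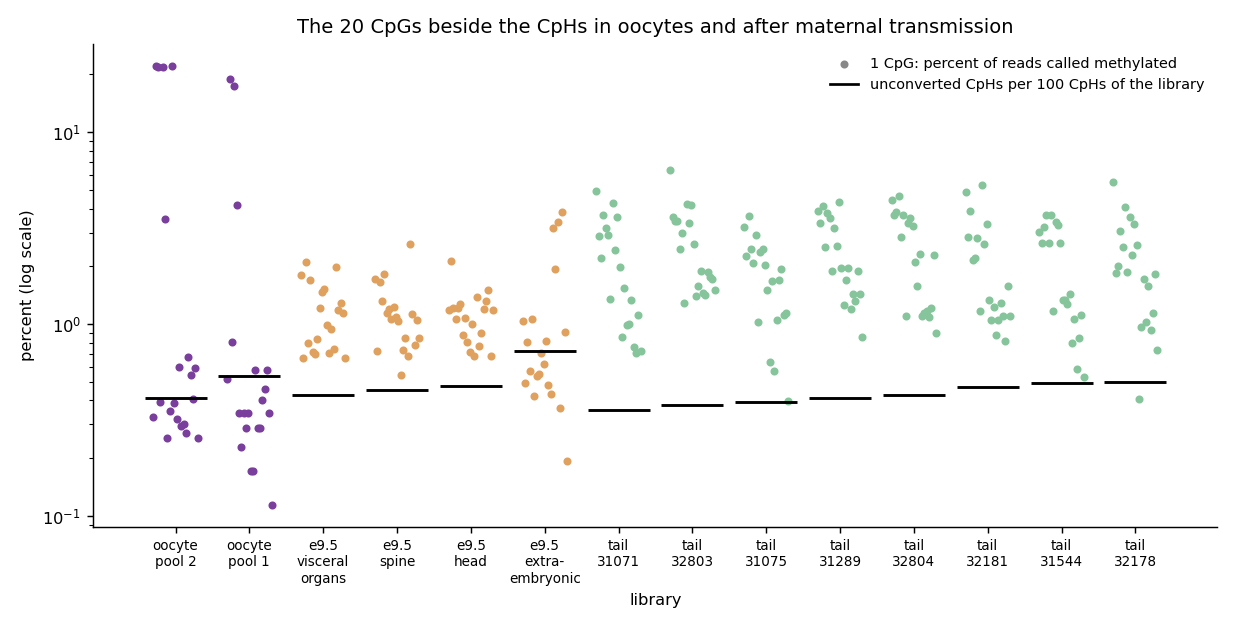
Percent of reads called methylated at each of the 20 CpGs (points, in order along the amplicon) and unconverted CpHs per 100 CpHs (black line) in the oocyte pools and in the libraries of maternal transmission, on a log scale. Most CpGs of the oocyte pools and 11 of maternal extraembryonic tissue lie below the line, while those of tails lie above it but for 1 CpG of animal 32178.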

How the data were processed

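DNA from tails, sperm, oocytes and e9.5 tissues was bisulfite converted, amplified at the *Wnt1DR* DMD with allele-specific primers and sequenced on a MiSeq. The authors filtered reads by base quality, shortened the data of run 2 and aligned reads of 250 nt to the unconverted reference with QUMA, whose version is not given in the sources used here. For each read the deposited files list counts of unconverted CpHs, CpHs, mismatches and gaps, and the percent converted and percent identity that the authors' software computed. The limits in the files were 95% conversion, 5 unconverted CpHs, 10 mismatches and an identity of 90% (33 files) or 98% (3 files).

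Reads not excluded and of at least 98% identity were used. The rate of a library was its unconverted CpHs per 100 CpHs, with Wilson 95% intervals. Groups came from the genotype and tissue labels and runs from the study's supplement. A sperm animal with 2 fractions counted once. Means were compared over libraries by two-sided exact permutation tests, pairs and within-library differences by exact sign-flip tests, with Benjamini-Hochberg adjustment over 10 and 6 comparisons (threshold 0.05). Libraries named by rule were the highest and lowest of each class and all oocyte, sperm and e9.5 libraries. Other tails and the families were named after their values were seen. Sites, read classes and comparisons were chosen with earlier results of these data known. In 221 reads of 8 libraries the call string was damaged, and these were left out of CpG-based steps. The Wilson interval and the permutation test were tried on simulated counts and library rates. Read classes and families were not simulated. Python 3.11.15, NumPy 2.4.6, pandas 2.3.3 and SciPy 1.17.1 were used. Alternatives were every read not excluded, no conversion limit, no mismatches, CpHs outside the primer, share of reads, medians, run 2, single transmissions, whole sperm, fewer reads per class and each replicate left out. Leaving out families, other family thresholds and runs within transmission were added after seeing the data. The e9.5 libraries were paired by tissue and the swim-up fractions by animal, as the labels give them.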

Additional observations from a re-analysis of the deposited data

Results flagged for a closer look

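Maternal extraembryonic tissue at e9.5 stood far from the other maternal e9.5 tissues. It had 0.722 unconverted CpHs per 100 CpHs and an unconverted CpH in 38.5% of reads, and for both measures the gap to the next tissue, divided by the range of the 4 tissues, was above Dixon's critical value (0.844 and 0.866 against 0.829). Of 20 combinations of a sample group and a measure examined, 2 met this limit, both in this library. Chance gives about 1 in 20 if these are independent, but the same groups recur over several measures. Both measures come from the same unconverted CpHs, so the 2 are not independent. Its CpG level and its mismatches per read were at or near those of the other maternal tissues, and the part of other properties of this library was not tested.

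Reads with 98% identity that were excluded because under 95% of their CpHs were converted entered no comparison. In 7 libraries their number was above the 3 that a count of 0 allows, namely 21 in the paternal tail 31819, 7 each in the paternal tails 31508 and 32530, 4 in the paternal tail 32802, 6 and 4 in the pellets of 35669 and 35670, and 5 in the supernatant of 35670. The tails 31508 and 31819 also had the highest rates among tails. These are counts, not scaled to the reads of the library. As a share of reads they were 0.0156% to 0.235% in the libraries named, and the maternal tails 32181 and 31289, with 2 and 3 such reads, had 0.116% and 0.0859%.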

How the results depend on the processing

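Of 273 tests recomputed under alternatives, 242 kept their direction and their side of an unadjusted p of 0.05, and 22 further values had no test. The differences between classes lay near 0, and 28 of the 295 values changed sign, among them 13 with 1 replicate left out. With reads free of mismatches and gaps, sperm minus tail was 0.0037, oocyte minus tail 0.0727, oocyte minus e9.5 tissue 0.0458, high minus none in paternal tails 0.0087 and sporadic minus none in sperm 0.0056. CpHs outside the primer gave 0.0180 for oocyte minus tail, with the same unconverted CpHs over fewer CpHs. As percent of reads with an unconverted CpH, oocyte minus tail was 1.93 and oocyte minus e9.5 tissue 0.0719. With whole sperm alone, sperm minus tail was 0.0101 and oocyte minus sperm -0.0157. Medians gave -0.0095 for e9.5 tissue minus tail and 0.0030 for oocyte minus e9.5 tissue, and paternal transmission alone gave -0.0175 for e9.5 tissue minus tail. Classes of at least 20 reads gave 0.0574 for high minus none in paternal tails. Apart from that change of denominator, the cause of these changes was not tested. The difference between transmissions in tails was 0.050 in run 2 alone and that between runs was -0.0376 in paternal and -0.0820 in maternal tails, no longer at an unadjusted p under 0.05, with fewer animals. Neither comparison passed after adjustment with all animals.

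Without the 15 families, oocyte minus tail was -0.147, oocyte minus sperm -0.134 and oocyte minus e9.5 tissue -0.155. High minus none was then 0.0120 in paternal e9.5 tissues, -0.0207 in paternal tails and -0.0377 in sperm. With all families it was 0.0596, -0.0077 and -0.0293 in the same order. The number of such families was 5 with at least 100 reads, 45 with at least 20 reads and 25 at a share of 50%.

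With a replicate left out, sperm minus tail ran from -0.0415 to 0.0015, e9.5 tissue minus tail from -0.0028 (without maternal extraembryonic tissue) to 0.0467, oocyte minus e9.5 tissue from -0.0971 to 0.0301 and oocyte minus sperm from -0.0560 to 0.0711, with -0.0072 to 0.0359 when a sperm animal was left out. Oocyte minus tail ran from -0.0692 to 0.0579, with -0.0122 to 0.0048 when a tail was left out. Paternal minus maternal e9.5 tissue ran from -0.0920 to 0.0851, supernatant minus pellet from -0.0396 to 0.0086, high minus none from -0.0465 to 0.0453 in paternal tails and from -0.0039 to 0.149 in paternal e9.5 tissues, and sporadic minus none from -0.0254 to -0.0129 in maternal tails and from -0.0843 to 0.0202 in maternal e9.5 tissues. Without the pairing as a replicate block, paternal minus maternal e9.5 tissue was -0.0228 (exact permutation p = 0.800) and supernatant minus pellet -0.0155 (exact permutation p = 1.0), and neither call changed. Excluded reads list no CpG calls, so the within-library comparisons could not be run without the conversion limit.

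The 95% intervals that depth allows reached 0.00985 to 0.0447 per 100 CpHs to either side of a library's rate, against an SD of 0.079 among the 20 tails.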

Other observations

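Reads methylated at all 20 CpGs formed a family in each of the 12 paternal tails, where 18.7% to 34.4% of such reads had an unconverted CpH, with the lowest share in animal 32529 and the highest in animal 31508. Reads with no methylated CpG in the 8 maternal tails had 19.7% to 25.9%. In the swim-up samples, wholly methylated reads had 14.7% and 13.2% in the supernatants of 35669 and 35670 (429 and 174 reads) and 22.0% and 26.0% in the pellets (774 and 2146 reads). The maternal tail 32804 had a family of 52 wholly methylated reads, with 3.85%. These families were chosen after the values were seen.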
